A study of Mus musculus with 4 samples.

Results

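The genes described here are the Rab, Arf and endosomal sorting genes expressed in mouse liver. They were chosen by symbol alone, as the listed genes whose symbol starts with Rab, Arf, Arl, Vps, Snx, Stx or Vamp followed by a digit. Of the 7000 genes in the authors' deposited table, 82 met this rule. Livers came from male FVB/N mice given a Se-deficient diet from weaning, supplemented with sodium selenite at 0 ppm Se (0 Se, mice 1 and 2) or 0.1 ppm Se (0.1 Se, mice 4 and 5) for 6 weeks. Total liver RNA of these 4 mice was sequenced after removal of ribosomal RNA. For each gene the table gives the length of its RefSeq mRNA and 1 mean level over all 4 libraries, in CPM, the reads of a gene scaled to the total of the library, so both diets are pooled in every value below. There is no value for a single mouse, and therefore no depth per library, no spread between mice and no error for any level. How these genes differed between the diets was not analysed here, and the levels below are a description with no test. The rows of the table stand in the order of the authors' p-value for the comparison of the diets. The genes listed may thus have been selected by that comparison, and a gene that is not listed was not analysed here, whatever its level.

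Rab and Arf proteins are small GTPases that mark the membranes of the cell. In the GTP form each recruits its own set of coats, tethers and motors to a particular compartment, and the Arl proteins are relatives of Arf with similar or more specialised duties. Vps and Snx proteins sort cargo at endosomes, either sending it back to the Golgi and the cell surface or passing it to the lysosome, while syntaxins (Stx) and Vamp proteins are SNAREs, which pull a vesicle and its target membrane together. In hepatocytes these steps carry secreted plasma proteins out to the blood side, bile transporters to the canalicular side, and endocytosed receptors back to the surface. RefSeq (GRCm38.p6) names 190 protein-coding mouse genes that meet the symbol rule, and 82 of them were listed. The listed share was 25 of 69 genes for Rab, 3 of 6 for Arf, 16 of 27 for Arl, 14 of 35 for Vps, 11 of 30 for Snx, 8 of 15 for Stx and 5 of 8 for Vamp. The early endosomal Rab5 genes, the recycling Rab11 genes, Arf6, Vps26a and Vps4a were among those not listed. Of the 82 listed genes, 11 encode binding partners that are named after a Rab or Arl protein, such as Rab3gap1 and Arl6ip1. The other 71 were counted as family proteins by symbol. They include Vps72, whose protein has another task, given below.

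Members of these families are similar in sequence. The authors counted only reads of 50 bases that aligned to a single mRNA with up to 2 mismatches. The similarity of close paralogs could therefore bear on a level, and the stretches they share are counted below. The P-loop, the phosphate-binding stretch that all small GTPases share, was searched for by its codons, in frame on the coding strand. The transcript models came from release vM1 of GENCODE, whose assembly, NCBIM37, corresponds to mm9. It was found within the first 60 codons in 32 of the 33 listed Rab, Arf and Arl family proteins, and in 1.72% of the 6934 listed genes that could be matched to these models. In Arl10, the remaining gene, it lies further downstream. The P-loop codons of the 4 pairs of listed paralogs with the most similar coding sequences are shown here because the proteins are alike at this place and the mRNAs are not, each as 8 codons in the mRNA sense with the bases that differ from the partner in capitals.
Rab1 (chr11:20115661-20115684, plus strand, exon 2 of 6): ggCgaTtcTggGgtTggAaagtcC
Rab1b (chr19:5105199-5105222, minus strand, exon 2 of 6): ggTgaCtcCggCgtGggCaagtcG
Rab8a (chr8:74685300-74685323, plus strand, exon 1 of 9): ggGgactcGggGgtAggGaagacc
Rab8b (chr9:66767375-66767398, minus strand, exon 1 of 8): ggCgactcCggCgtTggCaagacc
Arf1 (chr11:59026897-59026920, minus strand, exon 2 of 5): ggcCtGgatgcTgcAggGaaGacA
Arf2 (chr11:103830481-103830504, plus strand, exon 2 of 5): ggcTtAgatgcAgcTggCaaAacG
Arl5a (chr2:52272173-52272196, minus strand, exon 2 of 6): ggGctggaCaaTgcTgggaaGacG
Arl5b (chr2:14989786-14989809, plus strand, exon 2 of 6): ggActggaTaaCgcGgggaaAacC

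The partners differed at 7 of these 24 bases for Rab1 and Rab1b, at 5 for Rab8a and Rab8b, at 7 for Arf1 and Arf2, and at 6 for Arl5a and Arl5b, each more than the 2 mismatches that the authors allowed. Over the whole coding sequence, identity was 80.6% for Arf1 and Arf2, 76.1% for Rab1 and Rab1b, 75.3% for Rab8a and Rab8b, and 70.4% for Arl5a and Arl5b. These were the 4 pairs above 70% among the 300 pairs of similar coding length that were aligned within a family. Every stretch of 50 bases of each member's mRNA was then aligned to 1 mRNA per gene of the same annotation, with up to 2 mismatches and on either strand. Of the 81 members that could be matched, 58 had no stretch that aligned in a second place, and 15 had more than 1% of such stretches. Rab1 and Rab1b shared 5 stretches, and the other 3 pairs shared 0. The models of Rab8a (1237 bases) and Arl5b (2852 bases) were shorter than the listed mRNAs (2012 and 3594 bases). Part of these 2 listed mRNAs was therefore not searched. The largest shared portion, 28.4% of stretches, was that of Rab3gap2, which shared them with Iars2, a gene that overlaps its end on the other strand. Stx8 followed at 11.8%, or 514 stretches, all of which recurred within its own mRNA, and 12.5% of its exon bases lie opposite exons of another gene. The sources used here do not say whether the authors' alignment used strand, so the levels of Rab3gap2 and Stx8 are uncertain.

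To compare genes, each mean CPM was divided by the length of the listed mRNA in kilobases. On this per-length scale the 82 members had a median of 6.72 CPM per kilobase, with the central 50% of them between 3.12 and 19.4, against a median of 6.19 for all 7000 listed genes, whose central 50% lay between 2.09 and 18.03. The members were above the median of all listed genes in 45 of 82 cases, or 54.9%. Members lay on both sides of these bounds for the listed genes, with 21 above the upper and 14 under the lower. The highest member was at 128.2 CPM per kilobase, against 15367 for the highest of all listed genes. The summed mean level of the 82 genes was 3239 CPM, which is 0.50% of that of the listed genes. The 10 highest members held 50.8% of the members' summed per-length level. These were Vamp8, Arf1, Arl6ip1, Arl1, Vps28, Rab1, Arf4, Arl5a, Rab1b and Rab14. Of these 10, 7 were small GTPases. There were 5 members under 1 CPM per kilobase, among them Snx32, Stx3, Rab39 and Rab11fip5.

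**Figure D1:**
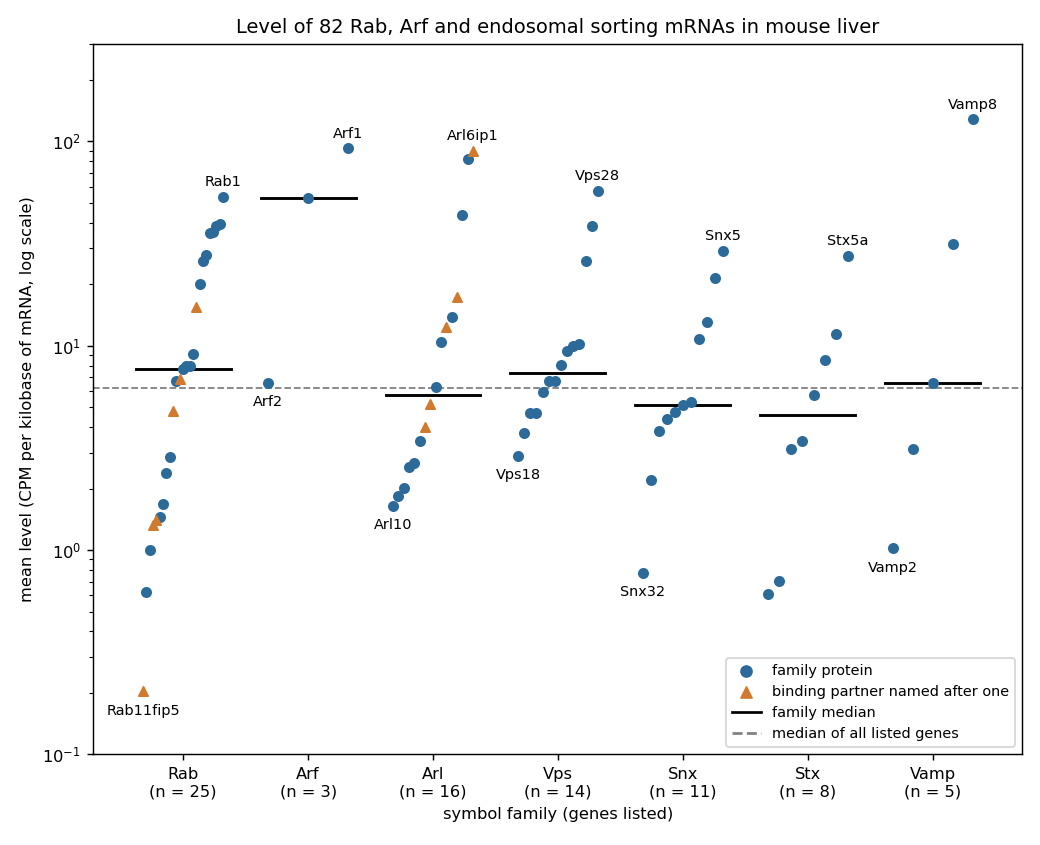
Mean level of each of the 82 listed genes over the 4 liver libraries, in CPM per kilobase of mRNA on a log scale, by symbol family, where circles are family proteins, triangles are binding partners, black bars are family medians and the dashed line is the median of all listed genes (6.19). The 3 Arf genes all lie above the dashed line with a median of 52.7, and the Rab genes run from 0.204 for Rab11fip5 to 53.5 for Rab1.

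The Rab genes of the early secretory pathway lay above the median of all listed genes in 5 of 6 cases. Rab1, which directs vesicles from the endoplasmic reticulum to the Golgi, had a mean level of 53.5 CPM per kilobase (142 CPM, 2657 bases), higher than 89.3% of the listed genes. It lies on chromosome 11 of NCBIM37 from 20101435 to 20126859. Rab1b, its paralog with the same task on chromosome 19 from 5099207 to 5107019, was at 39.4 CPM per kilobase. The ratio of Rab1 to Rab1b was 1.36 per length. Rab43, which acts between the endoplasmic reticulum and the Golgi, was at 35.5 CPM per kilobase (163.5 CPM, 4605 bases). By CPM Rab43 was above Rab1, so their order depends on the length. Rab18, a Rab of the endoplasmic reticulum and lipid droplets, was at 27.8 CPM per kilobase. Lower levels were found for the Golgi Rab genes Rab30 (6.74 CPM per kilobase) and Rab2b (1.69 CPM per kilobase). The median of the 6 genes was 31.6 CPM per kilobase.

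The Rab genes of recycling and polarised transport had a median of 31.0 CPM per kilobase over 4 genes, and by CPM their median was 81.97 against 67.5 for those of the early secretory pathway. Rab14, which acts between the trans-Golgi network and endosomes, was at 38.5 CPM per kilobase (119 CPM). Rab8a, which carries cargo to the plasma membrane and into cilia, was at 35.9 CPM per kilobase, and the related Rab10 was at 26.1. By CPM their order was reversed, at 72.2 for Rab8a and 91.8 for Rab10. Rab8b was far lower at 2.38 CPM per kilobase, so that the level of Rab8a was 15.1 times that of its paralog per length and 6.38 times by CPM. In the mRNA models, Rab8b and Rab8a had 1.8% and 6.1% of stretches with a second place, none of them in the other paralog. The annotated Rab8a mRNA nearest to the listed one was not within 10% of the listed length.

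Among the Rab genes of late endosomes, lysosomes and related organelles, the 5 listed genes had a median of 7.92 CPM per kilobase, and 4 of 5 were above the median of all listed genes. The highest was Rab32, a Rab of lysosome-related organelles and mitochondria, at 20.1 CPM per kilobase. Rab24, which is linked to autophagy, was at 9.11 CPM per kilobase, Rab12 at 7.92 and Rab7l1 (now Rab29), a Rab of the trans-Golgi network and stressed lysosomes, at 7.67. The lowest was Rab34 at 2.84 CPM per kilobase. Rab21, an early endosomal Rab that binds integrins, was the only listed member of its group, at 8.0 CPM per kilobase.

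The 2 listed Rab genes of regulated secretion both lay below the median of all listed genes. Rab3d, known from the zymogen granules of exocrine glands, was at 1.45 CPM per kilobase (5.60 CPM). Rab27a, which docks secretory lysosomes and exosome-bearing endosomes, was at 1.004 CPM per kilobase (2.98 CPM), above 12.3% of the listed genes. Rab39, which belongs to none of these groups, was at 0.624 CPM per kilobase. Over all 19 listed Rab family proteins, the median was 8.0 CPM per kilobase and 13 were above the median of all listed genes.

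The partners named after Rab proteins had a lower median, 3.09 CPM per kilobase over 6 genes. The subunits of the Rab3 GTPase-activating complex, which also activates Rab18, were unequal. Rab3gap1 (chromosome 1, 129765350 to 129840445) was at 15.4 CPM per kilobase and Rab3gap2 (chromosome 1, 187028047 to 187110622) at 4.77. The ratio of 3.23 rests in part on Rab3gap2 stretches that Iars2 shares. Rab3ip, the exchange factor that activates Rab8, was at 6.90 CPM per kilobase. The Rab11 effectors Rab11fip1, Rab11fip4 and Rab11fip5 were at 1.40, 1.33 and 0.204 CPM per kilobase. Rab11fip5 was thus the lowest of all 82 members, above 0.5% of the listed genes, with a mean of 1.25 CPM on an mRNA of 6124 bases.

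The 3 listed Arf genes encode GTPases that recruit vesicle coats at the Golgi. Arf1, which brings the COPI coat to Golgi membranes, was at 92.5 CPM per kilobase (184 CPM, chromosome 11, 59024914 to 59041772) and Arf4 at 52.7 (108 CPM, chromosome 14, 27457560 to 27484570). Arf2, the closest relative of Arf1 by the coding sequences shown above, was at 6.59 CPM per kilobase. The level of Arf1 was 14.0 times that of Arf2 and 1.76 times that of Arf4. No stretch of 50 bases was shared between Arf1 and Arf2.

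The 11 listed Arl family proteins ranged from 1.65 to 81.7 CPM per kilobase, with a median of 3.41. The highest was Arl1 (chromosome 10, 88193603 to 88206839), which tethers golgin proteins at the trans-Golgi, at 81.7 CPM per kilobase. Arl5a, which acts on the trans-Golgi together with the GARP tether, followed at 43.7 CPM per kilobase, and its mean of 228 CPM was the highest of the 82 members before division by length. Its mRNA of 5212 bases is mostly untranslated, since 10.3% of the annotated transcript is coding sequence. Arl4d, a plasma membrane Arl that recruits cytohesins, was at 13.8 CPM per kilobase and Arl5b at 10.5. Arl5a was 4.18 times the level of Arl5b. The lowest were Arl15 at 1.84 CPM per kilobase and Arl10 at 1.65.

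Arl genes with ciliary, tubulin and lysosomal tasks, picked after their values were seen, lay between Arl5b and Arl15. Arl3, which releases lipidated cargo in cilia, was at 6.29 CPM per kilobase, and Arl13b, the ciliary GTPase that activates it, at 2.01. Arl2, which takes part in tubulin folding, was at 2.66 CPM per kilobase, and Arl8a, which moves lysosomes along microtubules, at 3.41. Of the Arl partners, Arl6ip1, a protein that shapes tubules of the endoplasmic reticulum, had the third highest level of all members, at 89.5 CPM per kilobase (191 CPM). The other listed Arl partners were Arl6ip5 at 17.3 CPM per kilobase, Arl6ip4 at 12.3, Arl14ep at 5.18 and Arl6ip6 at 3.99. Arl6ip4 is known as a nuclear protein of mRNA splicing.

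Each pair of close relatives could be set side by side because both partners were listed. Apart from the pairs above, Snx5 and Snx6 have coding sequences that are 65.5% identical and differed in level 2.21 times. Vamp3, the recycling endosome SNARE, was 6.41 times the level of Vamp2, its relative on synaptic and glucose transporter vesicles, and the pair is 65.8% identical. Arl3 was at 2.37 times the level of Arl2. Snx6 was at 17.0 times the level of Snx32, which had a mean of only 1.275 CPM, and the pair is 65.1% identical. None of these 4 pairs shared a stretch of 50 bases. The error of these ratios is unknown because only 1 value per gene is listed.

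**Figure D2:**
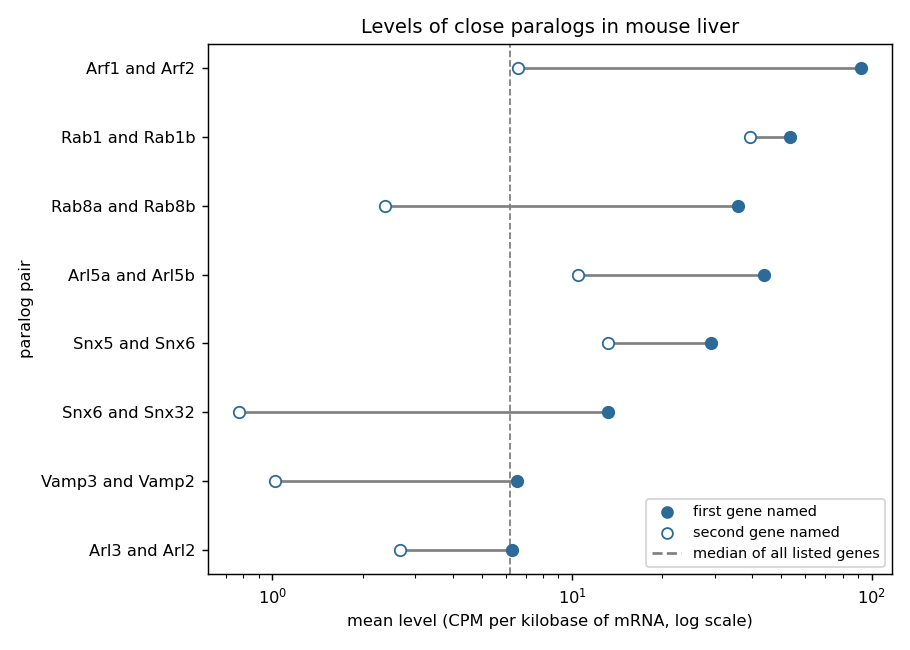
Mean level over the 4 liver libraries in CPM per kilobase of mRNA, on a log scale, for 8 pairs of paralogs, where a filled circle is the first gene named, an open circle the second and the dashed line the median of all listed genes. Rab1 and Rab1b lie close together on the right at 53.5 and 39.4, while Rab8a and Rab8b stand apart at 35.9 and 2.38, as do Arf1 and Arf2 at 92.5 and 6.59.

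The Vps genes were described by the complexes their proteins form. Retromer retrieves receptors from endosomes, and 3 of its subunits were listed. Vps35, its scaffold (chromosome 8, 87784296 to 87823412), was at 38.4 CPM per kilobase (122 CPM). Vps29, which binds the end of Vps35 (chromosome 5, 122804378 to 122814993), was at 26.04 CPM per kilobase. Vps26b, the alternative form of the arrestin-like subunit, was at 4.69 CPM per kilobase on an mRNA of 6873 bases. Vps35 was 1.47 times the level of Vps29 and 8.18 times that of Vps26b per length. By CPM these ratios were 4.79 and 3.77, and Vps29 (25.4 CPM) was below Vps26b (32.2 CPM), so the order of these subunits depends on the length. In Vps26b, 8.5% of the exon bases lie opposite exons of another gene and 6.0% of stretches had a second place.

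HOPS and CORVET tether late and early endosomes and share a core, of which 3 subunits were listed at moderate levels. Vps11 was at 10.02 CPM per kilobase, Vps33a, the subunit that binds SNAREs, at 8.06 and Vps18 at 2.89. The highest of these was 3.46 times the lowest per length. By CPM Vps33a (33.12) was above Vps11 (31.85). ESCRT-I, which collects ubiquitinated cargo for the lysosome, spanned a wider range. Vps28 (chromosome 15, 76452518 to 76456457) was at 57.3 CPM per kilobase, the highest of the Vps genes, while Vps37a and Vps37c, which take alternative places in the complex, were at 9.37 and 4.69. The Vps28 mRNA is short, at 885 bases, and that of Vps37a is 6379 bases. Before division by length Vps28 was at 50.7 CPM and Vps37a at 59.8 CPM, so the order of these 2 subunits depends on the length.

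The lipid transfer proteins Vps13a, Vps13b and Vps13c, which bridge membranes at contact sites, had the longest mRNAs of all members, from 11164 to 13371 bases. Their mean levels of 74.97, 136 and 77.5 CPM came to 6.72, 10.1 and 6.73 CPM per kilobase. Per length, the 3 genes lay within a ratio of 1.51. Vps51, a subunit of the GARP and EARP tethers that return vesicles to the Golgi, was at 3.75 CPM per kilobase, and 25.4% of its annotated exon bases are shared with another gene model on the same strand. Vps72 carries the family name but encodes a subunit of chromatin remodelling complexes. It was at 5.94 CPM per kilobase. Over the 14 Vps genes the median was 7.39 CPM per kilobase, and 9 were above the median of all listed genes.

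**Figure D3:**
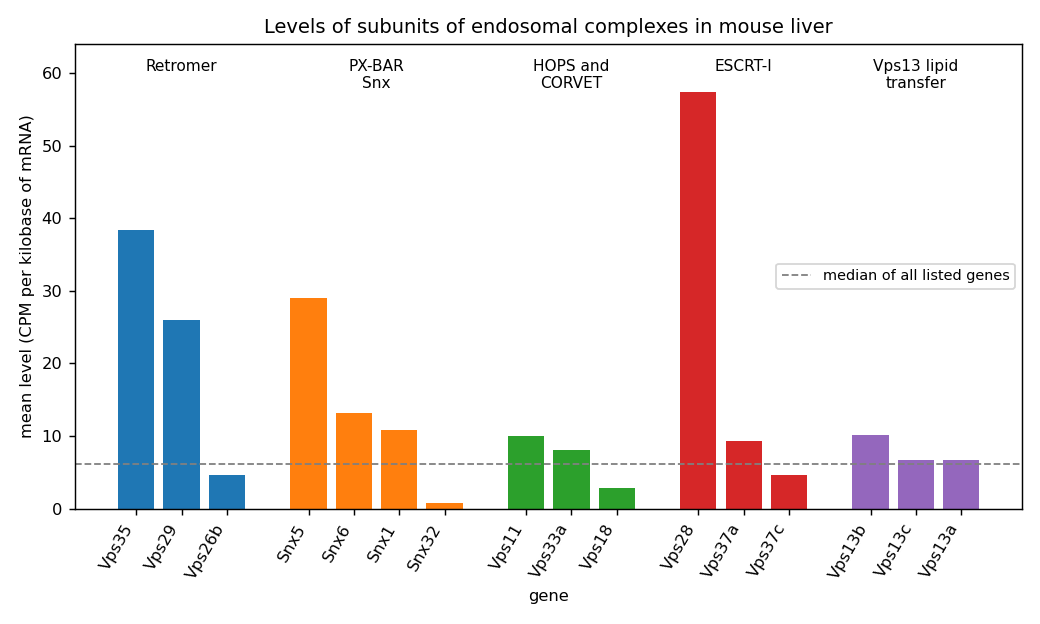
Mean level over the 4 liver libraries in CPM per kilobase of mRNA, on a linear scale from 0, of listed subunits of retromer, sorting nexins with PX and BAR domains, HOPS and CORVET, ESCRT-I, and the Vps13 proteins, with the median of all listed genes as a dashed line. Within retromer and ESCRT-I the bars of Vps26b and Vps37c, both at 4.69, lie below the dashed line, and those of Vps35 (38.4) and Vps28 (57.3) stand far above it.

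Sorting nexins bind phosphoinositides on endosomes through a PX domain. Those with an added BAR domain bend the membrane into tubules, and 4 of them were listed. Snx5 was the highest sorting nexin at 29.0 CPM per kilobase (72.8 CPM), followed in this group by Snx6 at 13.1 and Snx1 at 10.8. Snx32, the third relative of Snx5 and Snx6, was at 0.773 CPM per kilobase. Its mean of 1.275 CPM is near the authors' filter of 1 CPM. The level of Snx5 was 37.6 times that of Snx32 per length and 57.1 times by CPM. Snx27, which links retromer to cargo through its PDZ domain, was at 5.28 CPM per kilobase. Among the other sorting nexins, Snx10, a regulator of lysosomes and endosomes, was at 21.4 CPM per kilobase. Snx15, Snx24, Snx12, Snx21 and Snx16 lay between 5.12 and 2.19 CPM per kilobase, all below the median of all listed genes. Over all 11 listed Snx genes the median was 5.12 CPM per kilobase, and 4 were above the median of all listed genes.

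The 8 listed syntaxins had a median of 4.58 CPM per kilobase, and 3 were above the median of all listed genes. The highest were a pair that act at the Golgi and the endoplasmic reticulum. Stx5a, the syntaxin of traffic between the endoplasmic reticulum and the Golgi, was at 27.6 CPM per kilobase (chromosome 19, 8815914 to 8830131), and Stx18, which receives vesicles back at the endoplasmic reticulum, at 11.4. Stx17, which fuses autophagosomes with lysosomes, was at 5.73 CPM per kilobase and Stx6, a syntaxin of the trans-Golgi network, at 3.13. The endosomal Stx12 and Stx8 were at 8.48 and 3.42 CPM per kilobase. Stx3, an apical syntaxin of the plasma membrane, was far lower at 0.703 CPM per kilobase (2.30 CPM), above 7.8% of the listed genes.

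The 5 listed Vamp genes spanned the widest range among the family proteins of any family. Vamp8, a SNARE of late endosomes and of regulated secretion in epithelia, was the highest of all 82 members at 128 CPM per kilobase (101 CPM on 786 bases), higher than 94.5% of the listed genes. Vamp7, which fuses lysosomes with the plasma membrane, was at 31.3 CPM per kilobase. It was the member with no matched gene model, so its mRNA was not searched for shared stretches or overlaps. Vamp3, Vamp5 and Vamp2 were at 6.53, 3.11 and 1.02. Vamp8 was 4.09 times the level of Vamp7 and 126 times that of Vamp2 per length, and 1.27 and 45.7 times by CPM. Vamp8 and Vamp5 are neighbours on chromosome 6, with 4754 bases between the end of Vamp5 at 72330462 and the start of Vamp8 at 72335217, both on the minus strand, and their levels were far apart.

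Vamp8 with Vamp5 was 1 of 3 pairs of neighbouring members within 100 kilobases. The other 2 formed a row on chromosome 19, where Vps51 is followed by Snx15 and then by Arl2, with 6069 bases between Snx15 and Arl2. Their levels were 3.75, 5.12 and 2.66 CPM per kilobase, all below the median of all listed genes. The 81 matched members lay on 20 chromosomes, with at most 10 on any, on chromosome 19. Their annotated mRNAs had a median of 32.8% coding sequence, from 10.3% in Arl5a to 98.4% in Vps13a, and a median of 6 exons. The annotated Vps13a mRNA, at 9656 bases, was shorter than the listed one of 11164 bases. The listed mRNAs of the 82 members had a median length of 2443 bases, against 2959.5 bases for all listed genes.

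**Figure D4:**
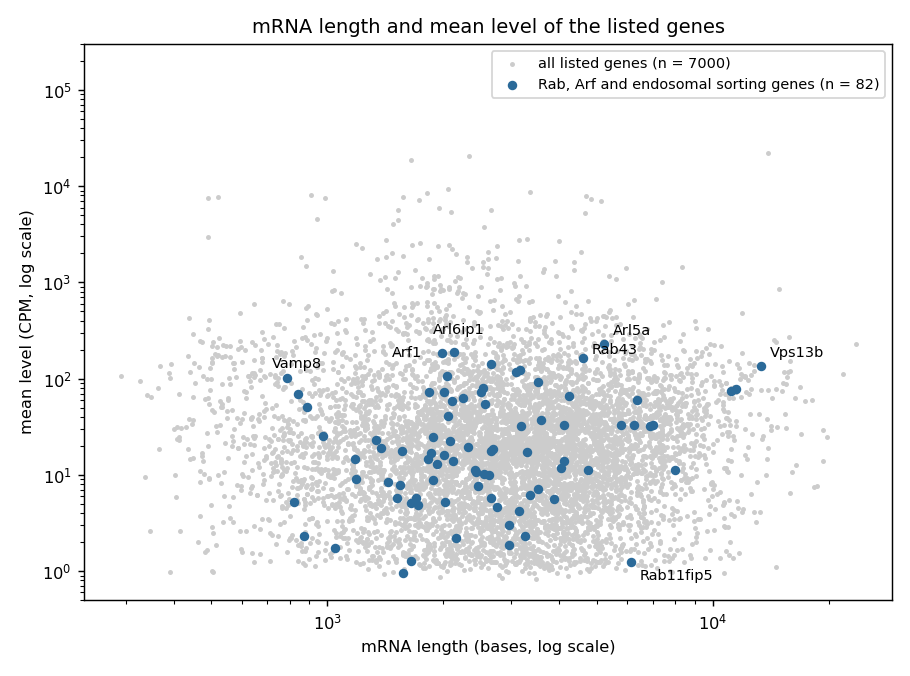
Mean level in CPM against mRNA length in bases, both on log scales, for all 7000 listed genes (grey) and the 82 Rab, Arf and endosomal sorting genes (blue). Vamp8 reached 101 CPM on a short mRNA of 786 bases and Arl5a 228 CPM on 5212 bases, while Vps13b lies at the right with 136 CPM on 13371 bases.

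Genes that work with these proteins but carry other names were described from 6 lists, of whose 65 genes 37 were listed in the table. Of these, 32 were above the median of all listed genes. Among the genes that prenylate Rab proteins or handle them between membranes, Chm was at 7.94 CPM per kilobase and Rabif, a guanine-nucleotide-free Rab chaperone, at 7.90. Of the Rab5 effectors, Rabep1 was at 20.1 and Appl2 at 4.97 CPM per kilobase. Lamp1, the abundant membrane glycoprotein of lysosomes, was at 347 CPM per kilobase, above every one of the 82 members. The 4 late endosomal genes listed also included Ccz1, which activates Rab7, at 23.8 CPM per kilobase. All 3 Arf GTPase-activating genes of the list were present, with Arfgap2 highest at 25.8 CPM per kilobase. The Arf1 exchange factors Arfgef1, Gbf1 and Arfgef2 were at 14.6, 11.6 and 9.07. Of the cytohesins in the same list, Cyth1 was at 13.05 and Cyth3, below the median of all listed genes, at 1.83.

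For ESCRT, the subunits without the Vps name had a median of 31.7 CPM per kilobase over 7 listed genes of 17, all above the median of all listed genes. Mvb12a, a further ESCRT-I subunit listed under its older symbol Fam125a, was at 37.2 CPM per kilobase. Tsg101, which joins Vps28 and a Vps37 subunit in ESCRT-I, was at 18.7 CPM per kilobase, between Vps28 (57.3) and Vps37a (9.37). Chmp2a, a filament subunit of ESCRT-III, was at 93.8 CPM per kilobase and Chmp2b at 11.4. The SNARE partners had a median of 22.3 CPM per kilobase over 13 listed genes of 19, and 11 were above the median of all listed genes. Bet1, Gosr2 and Sec22b, which pair with Stx5a at the Golgi, were at 45.7, 35.3 and 32.6 CPM per kilobase, and Scfd1, the Sec1-like protein that binds Stx5a, was at 36.8. At the plasma membrane, Snap23, the ubiquitous partner of Stx3, was at 14.7 CPM per kilobase.

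The label of the tissue was checked on 7 hepatocyte genes, of which 4 were listed. Apoa1, Cyp2e1, Serpina1a and Tat were at 7619, 4180, 1230 and 595 CPM per kilobase, all above the 82 members. Alb, Ttr and Cps1 were not among the listed genes. Genes of other liver cells were listed too. Of the Kupffer cell genes 4 of 5 were listed, Adgre1 under its older symbol Emr1, at 5.15 to 74.8 CPM per kilobase with Clec4f highest. Of the sinusoidal endothelial genes 4 of 5 were listed, at 9.27 to 76.9 CPM per kilobase with Clec4g highest. All 5 stellate cell genes were listed, at 1.03 to 98.3 CPM per kilobase with Dcn highest. Of the cholangiocyte and skeletal muscle markers, 0 of 4 and 0 of 3 were listed, and of the lymphocyte, erythroid and exocrine pancreas markers 1 of 4, 1 of 3 and 1 of 3, namely Ptprc at 3.93, Alas2 at 19.1 and Cela1 at 28.0 CPM per kilobase. In whole liver, the level of a Rab, Arf or SNARE gene sums over these cell types, so that few cells with much of an mRNA and many cells with little of it cannot be told apart.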

How the data were processed

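Liver RNA of 2 mice per diet was sequenced by the authors in single-end reads of 50 bases (stranded kit, ribosomal RNA removed). Per the study's methods and labels, Bowtie served the authors to align reads to mm9 RefSeq mRNAs, the longest isoform per gene. Unique alignments with up to 2 mismatches were kept, and the authors used edgeR for genes with over 1 CPM in at least 3 samples. The sources used here name no versions and no scaling. The log2 mean CPM was computed by the authors over both diets and is used as deposited, together with the mRNA length. The table also holds the authors' log2 fold changes, p-values and FDR for the diets. These deposited columns are the authors' own findings and were not used, except that the p-values were read to check the order of the rows, and no value of them is given. The diets were therefore not compared and no test was run, and no mouse could be left out.

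Levels are 2 to the power of the log2 mean CPM, divided by length in kilobases. Precision cannot be stated, since depth and spread are unknown. Medians, ranges and counts are given for members and all listed genes. The members and lists were chosen with earlier results of these data known. Named with values were all listed genes of a role with up to 8 listed, otherwise the 4 highest and 2 lowest, every complex subunit, and the 10 highest and 5 lowest overall. Arl genes with ciliary, tubulin and lysosomal tasks, the paralog pairs and examples of the partner genes were chosen after their values were seen. Amino acid sequences and the cysteine count planned for protein ends were left out, as no protein table was used, and values of a few genes are not reported here. Partner genes and markers were matched by symbol or by an older RefSeq symbol that no other gene now carries. Gene models, coding sequences and positions come from GENCODE vM1 (NCBIM37), 1 transcript per gene, nearest the listed length for members. Of 82 members 81 were matched, 72 of them within 10% of the listed length. Shared stretches were found with bwa 0.7.19 and tested on simulated data, and coding sequences were aligned with Biopython 1.88. Python 3.11.15, numpy 2.4.6, pandas 2.3.3 and matplotlib 3.10.9 were used.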

Additional observations from a re-analysis of the deposited data

How the results depend on the processing

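With only 1 pooled value per gene, no mouse could be left out, no test was run and no threshold could be crossed, so the alternatives show how far descriptive values moved. No paired analysis was possible because each level used pools the 4 mice and the diets share no mouse number. Without division by length, the median of the members was 17.3 CPM, and those of the families were 15.9 for Rab, 108 for Arf, 12.4 for Arl, 32.7 for Vps, 10.6 for Snx, 15.9 for Stx and 13.8 for Vamp. On that scale 46.3% of members lay above the median of all listed genes, against 54.9% per length, and it also fell below 50% with a minimum of 5 CPM. The ratio of highest to lowest subunit became 4.79 for retromer, 2.83 for HOPS and CORVET and 5.28 for ESCRT-I, the 10 highest members held 46.1%, and 7 of the 10 highest per length were also among the 10 highest by CPM. With 49 bases taken from each length, the medians were 6.75 for the members, 8.003 for Rab, 54.0 for Arf, 5.97 for Arl, 7.46 for Vps, 5.28 for Snx, 4.62 for Stx and 6.69 for Vamp, the ratios 8.25, 3.48 and 12.7 in the same order, and the share of the 10 highest 51.2%. With members and listed genes of at least 5 CPM, which left 70 members, the medians were 8.03 for the members, 9.11 for Rab, 8.37 for Arl, 5.196 for Snx, 7.11 for Stx and 18.9 for Vamp, with 45.7% above the median of all such genes and 51.4% held by the 10 highest. With family proteins only, the medians were 6.73 for the members, 8.0 for Rab and 3.41 for Arl, with 56.3% above the median and 53.3% held by the 10 highest. The mean on the log2 scale with a pseudocount of 1, turned back to a level, was 8.10 for the members, 7.45 for Rab, 32.6 for Arf, 8.45 for Arl, 9.42 for Vps, 6.39 for Snx, 4.71 for Stx and 11.1 for Vamp. Arf had the highest family value under each of these settings, while the lowest was Stx per length, Snx by CPM or with a minimum of 5 CPM, and Arl with family proteins only.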
